A study of Homo sapiens with 12 samples.

Results

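The insulin-like growth factor binding proteins (IGFBPs) are secreted proteins that bind the insulin-like growth factors IGF1 and IGF2 outside the cell. Bound growth factor does not reach its receptor IGF1R, and proteases that cut an IGFBP release it, so these proteins set how much growth factor a cell meets. Several of them also bind integrins, proteoglycans or the extracellular matrix, and gliomas and glioblastoma cell lines are known to make some of them. The genes described here are IGFBP2, IGFBP3, IGFBP4, IGFBP5, IGFBP6 and IGFBP7, taken as the rows of the count table that carry these symbols, 6 of 20289 genes. All 6 passed the filter on low counts, which left 12821 genes for testing. The family was chosen by fold changes and calls from these same libraries, so the tests given below describe these libraries and lend no separate support to that choice.

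RNA was measured in 12 sequencing libraries of U251, an established line of human glioblastoma cells, which fall into 4 groups of 3. The knockdown groups carried a short hairpin RNA against CD44, a cell-surface receptor for hyaluronan, and control DMSO cells a control hairpin. Control temozolomide libraries are titled NC, with no hairpin named, and share the genotype label WT with the control DMSO libraries; they were read as carrying the same control hairpin, which the labels do not state. If they did not, the drug comparison in control cells, the knockdown comparison under temozolomide and the difference between responses would also hold that contrast. Knockdown temozolomide cells had the CD44 hairpin and 50 µM temozolomide, a DNA-alkylating drug used against glioblastoma, for 24 h, and knockdown DMSO cells had the same hairpin and the solvent. Control temozolomide cells had the drug and control DMSO cells the solvent, at the same dose and time. The labels give neither the hairpin sequences nor how many were used, and separate cultures behind the 3 libraries of a group are not stated, so the p-values measure the spread between these libraries alone.

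Library totals ran from 13506946 to 24757977 estimated counts. CD44 averaged 326 ± 6.60 CPM (counts scaled to a common library total) in knockdown temozolomide, 419.8 ± 1.03 in knockdown DMSO, 821 ± 25.8 in control temozolomide and 1091 ± 43.3 in control DMSO libraries (SD, n = 3 each), which is 29.9%, 38.5% and 75.3% of the control DMSO level in the first 3 groups. Of 10 glial and glioma markers VIM averaged 3221 CPM, SOX2 339.1, SOX9 115 and NES 53.1 over the 12 libraries. GFAP, S100B, AQP4, ALDH1L1, OLIG2 and CHI3L1 were each below 1 CPM. Of the markers of other cell types, 6 of 8 endothelial, 6 of 7 leukocyte, 4 of 6 neuron, 3 of 7 pericyte and 2 of 7 epithelial ones averaged below 1 CPM, among them PECAM1, PTPRC, EPCAM and CDH1, and AIF1 and CD3E had no count. The others averaged 1.38 (TEK) to 570.1 CPM (KRT5), with the keratins KRT5, KRT8, KRT14 and KRT18 at 148 or above, CLDN4 at 40, CDH5 at 26.5, CD68 at 20, ABCC9 at 9.91, GAD1 at 6.64, SYT1 at 6.21 and RGS5 at 3.42 CPM over the 12 libraries.

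The family genes lie at 5 places in the genome (GRCh38, GENCODE annotation). IGFBP2 (ENSG00000115457) spans 216632828 to 216664436 on the plus strand of chromosome 2, and IGFBP5 (ENSG00000115461) spans 216672105 to 216695525 on its minus strand. They face each other tail to tail, 7668 bases apart, with no protein-coding gene between them. IGFBP3 (ENSG00000146674) lies on the minus strand of chromosome 7 at 45912245 to 45921874, and the plus-strand gene IGFBP1 ends 18576 bases before it. IGFBP4 (ENSG00000141753) spans 40443461 to 40457731 on the plus strand of chromosome 17, IGFBP6 (ENSG00000167779) 53097436 to 53102345 on the plus strand of chromosome 12, and IGFBP7 (ENSG00000163453) 57030773 to 57110385 on the minus strand of chromosome 4. IGFBP7 overlaps POLR2B on the opposite strand by 396 bases and IGFBP5 overlaps the antisense gene AC007563.2 by 1062 bases. Whether counting used the strand is not stated, so reads from these stretches cannot be assigned to a strand. IGFBP7 alone of the members had estimated counts that were not whole, in 12 of 12 libraries.

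IGFBP4 and IGFBP5 were the most abundant members in control DMSO libraries. The letters before their starts are shown because both fell in each of the 4 group comparisons below while their promoters differ in base composition. IGFBP7 also fell in each of the 4, but no promoter sequence was matched to it. The stretches are the 250 bases before the RefSeq transcript start (GRCh38.p14), chr17:40443200-40443449 on the plus strand for IGFBP4 and chr2:216695550-216695799 on the minus strand for IGFBP5. Capitals mark TATA-type letters, TATAAA in IGFBP4 and TATTTAA in IGFBP5, which begin 29 and 31 bases before the start.
IGFBP4: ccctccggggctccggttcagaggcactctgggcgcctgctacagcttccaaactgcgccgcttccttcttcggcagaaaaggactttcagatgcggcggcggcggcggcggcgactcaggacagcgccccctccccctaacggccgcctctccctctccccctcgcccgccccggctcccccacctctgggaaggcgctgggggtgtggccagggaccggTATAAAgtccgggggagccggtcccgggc
IGFBP5: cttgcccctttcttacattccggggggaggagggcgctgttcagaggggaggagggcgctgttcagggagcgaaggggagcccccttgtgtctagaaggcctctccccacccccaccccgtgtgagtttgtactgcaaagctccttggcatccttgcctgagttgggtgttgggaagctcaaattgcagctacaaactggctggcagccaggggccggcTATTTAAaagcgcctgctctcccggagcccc
In the RefSeq window of 250 bases before and 50 from the start, IGFBP4 had 74% GC and 30 CpG, and IGFBP5 59% GC and 9 CpG, against medians of 58.67% and 14 CpG over 35116 windows. On both strands, TATAAA was found in 11.5% and TATTTAA in 4.52% of all windows. The IGFBP4 window also held 2 copies of the GC box GGGCGG, present in 45% of all windows, and the IGFBP5 window had none. Neither window held the AP-1 letters TGANTCA (7.71% of windows), the E-box CACGTG (7.26%) or the forkhead letters GTAAACA (3.42%), and these searches say nothing about binding of the factors. RefSeq windows were matched for 5 of the 6 members, all except IGFBP7.

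Levels between genes can be compared as FPKM, the authors' value per transcript length and library total. In knockdown temozolomide libraries the order was IGFBP4, IGFBP2, IGFBP7, IGFBP5, IGFBP3 and IGFBP6, with IGFBP5 in the fourth place at 51.6 ± 1.44 FPKM. In control DMSO libraries IGFBP4 stood first at 276 ± 7.40 FPKM, then IGFBP5 at 206 ± 9.47, IGFBP2 at 158 ± 5.89, IGFBP7 at 80.3 ± 3.57, IGFBP3 at 4.47 ± 0.444 and IGFBP6 at 3.61 ± 0.193 (SD, n = 3 each), and no neighbours in either order overlapped between libraries. IGFBP2 stood above IGFBP5 in control temozolomide libraries, at 139 ± 1.57 against 121 ± 4.60 FPKM. In knockdown DMSO libraries IGFBP5 ran from 117 to 128 and IGFBP2 from 114 to 123 FPKM, so their order there was within the spread. IGFBP1, the family gene next to IGFBP3, had 1 count over all 12 libraries, while the least abundant member, IGFBP6, had 30 to 82 counts in each library.

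Summed over the 6 genes, the family held 378 ± 4.07 FPKM in knockdown temozolomide, 497.5 ± 9.45 in knockdown DMSO, 556 ± 11.2 in control temozolomide and 729 ± 20.7 in control DMSO libraries (SD, n = 3 each). The 4 groups did not overlap in this sum, on which no test was made. FPKM are scaled by library total and lack the scaling by the trimmed mean of M-values used for CPM below. The factors of that scaling were 1.03 to 1.04 in knockdown temozolomide and 0.961 to 0.966 in control DMSO libraries. IGFBP5 made up 13.6 ± 0.46%, 24.6 ± 0.99%, 21.7 ± 0.43% and 28.2 ± 1.04% of the sum in the same order of groups. The share of IGFBP4 stayed between 36.5% and 38.2% in the group means. IGFBP2 made up 31.3% of the sum in knockdown temozolomide libraries, against 21.7% in control DMSO libraries, and IGFBP7 16.5% against 11.0%.

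**Figure D1:**
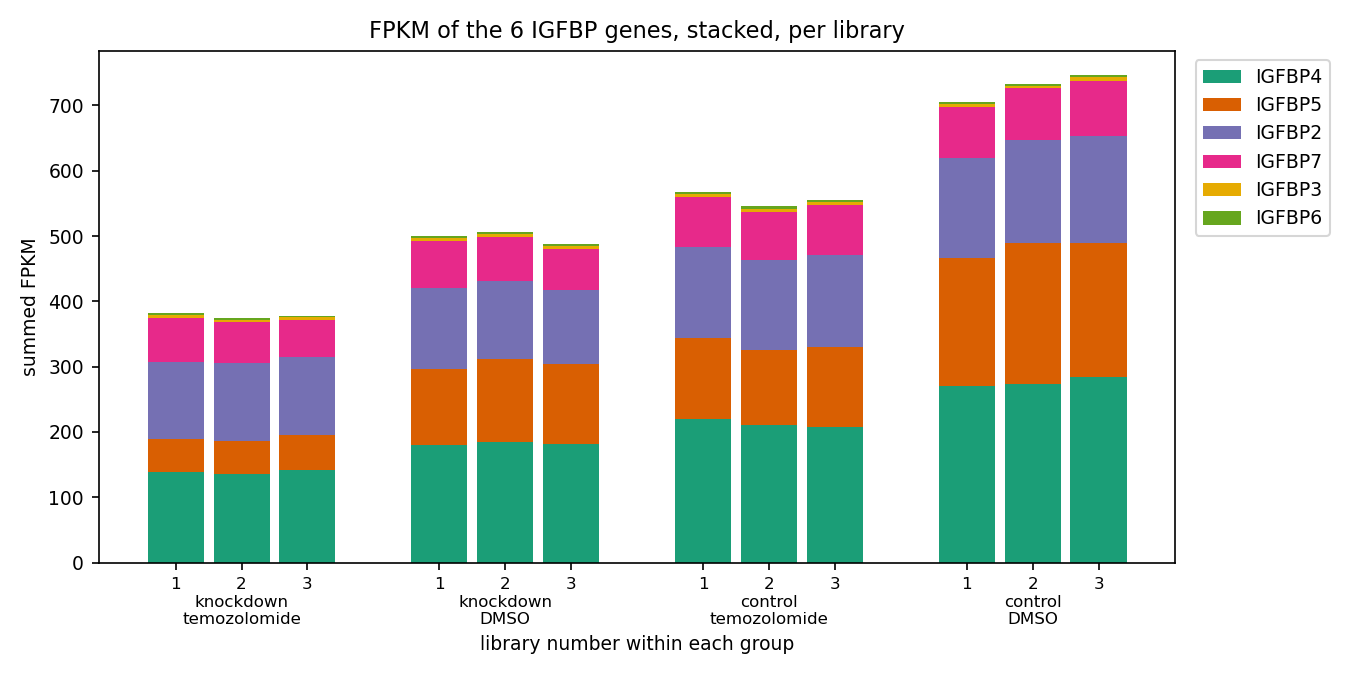
FPKM of the 6 IGFBP genes stacked for each of the 12 libraries, with library numbers on the horizontal axis under their group names and summed FPKM on the vertical axis. FPKM are scaled by library total, without the trimmed mean of M-values. The stacks are shortest in knockdown temozolomide (mean 378 FPKM) and tallest in control DMSO libraries (mean 729 FPKM), and the IGFBP5 segment shrinks most, to a share of 13.6% in knockdown temozolomide against 28.2% in control DMSO libraries.

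Within a gene, levels were compared between groups as CPM scaled by the trimmed mean of M-values. IGFBP5, which binds IGFs as well as matrix proteins and heparin, had 302, 309 and 321 CPM in the 3 knockdown temozolomide libraries and 738, 805 and 769 CPM in the knockdown DMSO libraries. It had 769.6, 714 and 751 CPM in control temozolomide and 1272, 1401 and 1324 CPM in control DMSO libraries. All 3 knockdown temozolomide libraries were therefore below all others and all 3 control DMSO libraries above all others, while the knockdown DMSO and control temozolomide libraries overlapped. In bulk libraries fewer cells with a transcript and less transcript per cell cannot be told apart.

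IGFBP4, which binds IGFs and is cut by the protease PAPPA, had 295, 288 and 304 CPM in knockdown temozolomide, 399, 410.4 and 402 CPM in knockdown DMSO, 479, 459.5 and 454 CPM in control temozolomide and 617, 629 and 650.4 CPM in control DMSO libraries. No pair of these groups overlapped. IGFBP2, which binds IGFs and carries an integrin-binding sequence, had 119, 115 and 113 CPM in knockdown temozolomide, 123, 122 and 114 CPM in knockdown DMSO, 139.9, 133 and 136 CPM in control temozolomide and 161, 164 and 175 CPM in control DMSO libraries. The knockdown groups overlapped each other and lay below both control groups, which did not overlap. IGFBP7, whose affinity for IGFs is low and which also binds collagen, averaged 85.8 ± 6.19 CPM in knockdown temozolomide, 96.6 ± 7.21 in knockdown DMSO, 106 ± 2.48 in control temozolomide and 118 ± 4.99 in control DMSO libraries (SD, n = 3 each). Its libraries overlapped between knockdown temozolomide, at 91.7, 86.4 and 79.4 CPM, and knockdown DMSO, at 103, 97.8 and 88.9 CPM. The control libraries, at 107, 103 and 107 CPM with temozolomide and 115, 116 and 124 CPM with DMSO, did not overlap.

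The remaining members were weakly expressed. IGFBP3, the main IGF carrier of the blood, had 9.33 to 10.9 CPM in knockdown temozolomide, 11.0 to 12.3 in knockdown DMSO, 10.6 to 11.7 in control temozolomide and 10.7 to 12.6 CPM in control DMSO libraries. IGFBP6, which prefers IGF2 over IGF1, had 2.15 to 2.51 CPM in knockdown temozolomide, 2.15 to 2.73 in knockdown DMSO, 3.16 to 3.75 in control temozolomide and 3.29 to 3.62 in control DMSO libraries. IGFBP6 libraries thus did not overlap between knockdown and control cells and overlapped between drug and solvent in both kinds of cells.

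**Figure D2:**
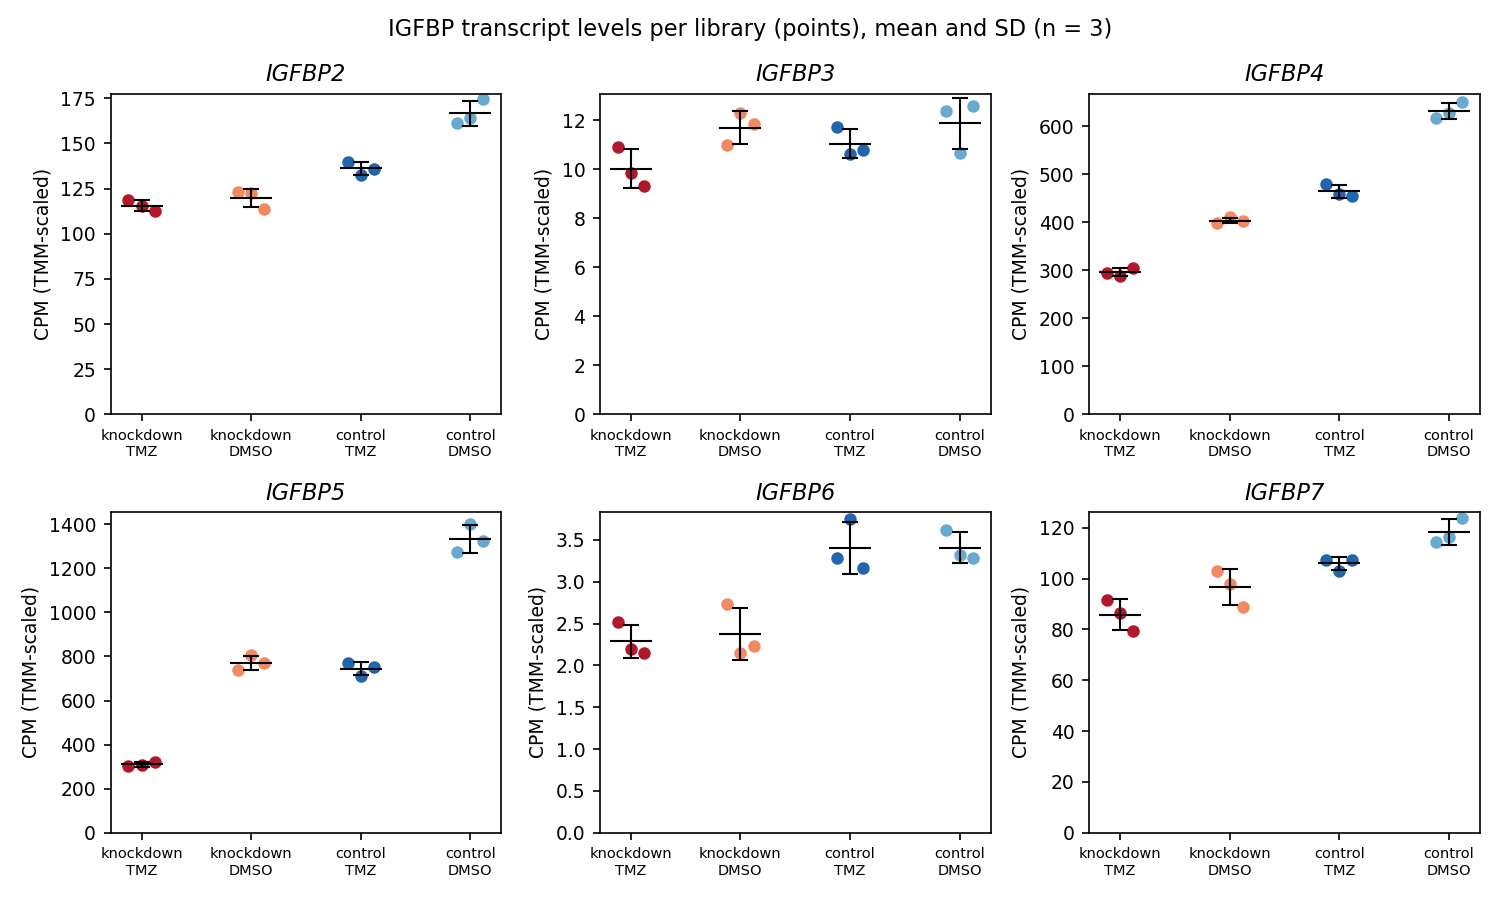
Level of each IGFBP transcript in CPM (vertical axes, linear from 0) in the 4 groups, with TMZ for temozolomide, 1 point per library, and the group mean and SD as black bars (n = 3). Relative to control DMSO, IGFBP5 shows the widest spread of group means, 310.5 CPM in knockdown temozolomide against 1332 CPM in control DMSO libraries, and IGFBP3 the narrowest, 10.0 against 11.9 CPM.

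Without the drug, knockdown against control cells shows how the family differs with CD44 reduced. IGFBP2, IGFBP4, IGFBP5, IGFBP6 and IGFBP7 fell, 5 of 6 members. Of all 12821 tested genes 42.6% were called in this comparison, 21.1% higher and 21.4% lower, at a Benjamini-Hochberg adjusted p below 0.05 in edgeR's quasi-likelihood test. IGFBP5 changed by a log2 fold change of -0.79 (SE 0.04, adjusted p = 1.9e-12 in edgeR) and had the 260th lowest value of all tested genes. IGFBP4 changed by -0.65 (SE 0.03), IGFBP6 by -0.53 (SE 0.19), IGFBP2 by -0.48 (SE 0.04) and IGFBP7 by -0.30 (SE 0.05) on the log2 scale, with edgeR adjusted p = 2.5e-12, 0.0270, 6.7e-09 and 0.000129. IGFBP3 was not called, with a log2 fold change of -0.02 and a 95% interval of -0.23 to 0.18 (edgeR adjusted p = 0.888). The median log2 fold change was -0.504 over the members and -0.00139 over all tested genes.

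With each gene centred on its own mean over the 12 libraries, GC-rich genes (above 60%) were compared with GC-poor genes (below 40%) on the log2 scale. The GC-rich genes lay -0.10 to -0.0402 from the GC-poor genes in the knockdown DMSO libraries and 0.0707 to 0.213 in the control DMSO libraries. In control temozolomide libraries the distance was -0.125 to 0.0438, and in knockdown temozolomide libraries -0.121 to 0.0747. The longest transcripts of IGFBP6 and IGFBP4 have 64.2% and 62.5% GC, those of the other members 49.5% to 57.1%. With a GC correction per library the log2 fold change was -0.41 for IGFBP6, whose call was then lost (edgeR adjusted p = 0.0753). The IGFBP6 call was also lost in DESeq2 (adjusted p = 0.0716) and without control DMSO replicate 1, knockdown DMSO replicate 2 or knockdown DMSO replicate 3, where its log2 fold change was -0.48, -0.46 and -0.48.

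Under temozolomide the same 5 members were lower in knockdown than in control cells, where 42.3% of tested genes were called, 22.0% higher and 20.3% lower. IGFBP5 showed the largest change of the family, with 310.5 ± 9.84 CPM in knockdown temozolomide and 745 ± 28.5 CPM in control temozolomide libraries (SD, n = 3 each), or -1.26 on the log2 scale (SE 0.04, edgeR adjusted p = 1.9e-15). By p it ranked 9th among the 12821 tested genes, and by log2 fold change it was the 76th lowest. IGFBP4 again changed by -0.65 (SE 0.03), IGFBP6 by -0.57 (SE 0.18), IGFBP7 by -0.30 (SE 0.05) and IGFBP2 by -0.24 (SE 0.04) on the log2 scale, with edgeR adjusted p = 2.9e-12, 0.0163, 0.000113 and 8.1e-05. IGFBP3 had a log2 fold change of -0.14 with a 95% interval of -0.35 to 0.06 and was not called (edgeR adjusted p = 0.255). The IGFBP6 call was lost without control temozolomide replicate 2 and without knockdown temozolomide replicate 2, at log2 fold changes of -0.50 and -0.53, and on log2(FPKM + 1) the value was -0.37.

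In knockdown cells temozolomide lowered IGFBP4, IGFBP5 and IGFBP7, 3 of 6 members, where 22.3% of tested genes were called, 9.05% higher and 13.2% lower. IGFBP5 changed by -1.31 on the log2 scale (SE 0.04, edgeR adjusted p = 8.2e-15), the smallest p of all 12821 tested genes and the 29th lowest log2 fold change. IGFBP4 changed by -0.45 (SE 0.03, edgeR adjusted p = 3.9e-09) and IGFBP7 by -0.16 (SE 0.05, edgeR adjusted p = 0.0353) on the log2 scale, and the IGFBP7 libraries of the groups overlapped. IGFBP3 had -0.22 with a 95% interval of -0.43 to -0.02 on the log2 scale and was not called (edgeR adjusted p = 0.115), although its libraries did not overlap. IGFBP2 had -0.05 with an interval of -0.14 to 0.04, and IGFBP6 -0.04 with an SE of 0.19, and neither was called (edgeR adjusted p = 0.441 and 0.905). The IGFBP7 call was lost without knockdown DMSO replicate 1 or 2 and without knockdown temozolomide replicate 2 or 3, at log2 fold changes of -0.12, -0.16, -0.17 and -0.11. It was also lost with library totals alone (-0.10, edgeR adjusted p = 0.177) and in all 3 limma fits to FPKM (-0.11, adjusted p = 0.252 to 0.326).

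In control cells temozolomide lowered IGFBP2, IGFBP4, IGFBP5 and IGFBP7, 4 of 6 members, where 27.5% of tested genes were called, 11.7% higher and 15.8% lower. IGFBP5 had 745 ± 28.5 CPM in control temozolomide and 1332 ± 64.6 CPM in control DMSO libraries (SD, n = 3 each), or -0.84 on the log2 scale (SE 0.04, edgeR adjusted p = 5.8e-12). IGFBP4 changed by -0.44 (SE 0.03), IGFBP2 by -0.29 (SE 0.04) and IGFBP7 by -0.16 (SE 0.05) on the log2 scale, with edgeR adjusted p = 3.2e-09, 1.8e-05 and 0.0282. IGFBP3 and IGFBP6 were not called, with log2 fold changes of -0.10 (95% interval -0.30 to 0.10) and -0.01 (95% interval -0.37 to 0.36) and edgeR adjusted p = 0.492 and 0.984. The IGFBP7 call was lost with the GC correction (log2 fold change -0.10) and without control DMSO replicate 3, control temozolomide replicate 2 or control temozolomide replicate 3 (-0.12, -0.14 and -0.17). It was also lost with library totals alone (-0.09, edgeR adjusted p = 0.195) and in all 3 limma fits to FPKM (-0.09, adjusted p = 0.313 to 0.405), where IGFBP2 had -0.18 and was still called. The control DMSO libraries serve as reference in this comparison and in that of the hairpins under DMSO, so these are not independent of each other.

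**Figure D3:**
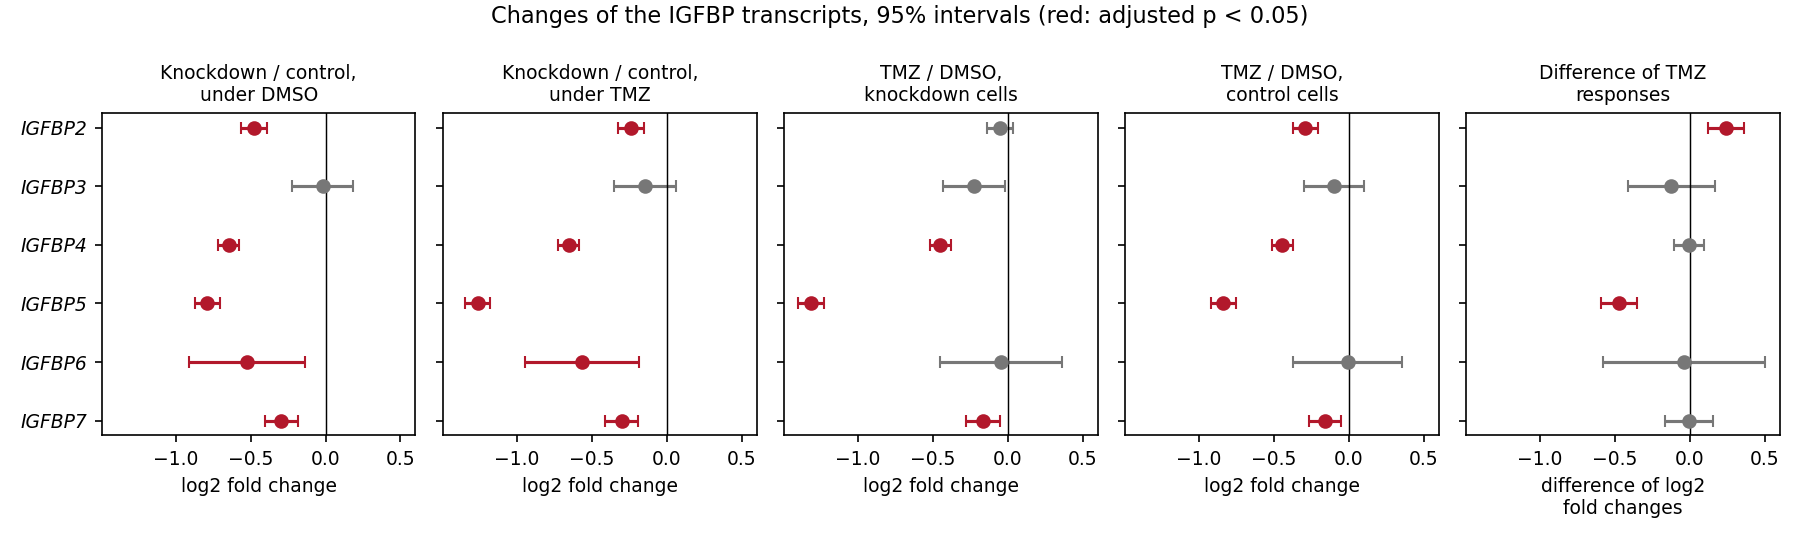
Log2 fold changes of the 6 IGFBP transcripts (horizontal axes) with 95% intervals in the 4 comparisons of groups and, on the right, the difference between the temozolomide (TMZ) responses of knockdown and control cells. Red marks an adjusted p below 0.05, and IGFBP5 lies furthest left in every panel, at -0.79, -1.26, -1.31, -0.84 and -0.47.

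The difference between the temozolomide responses, knockdown minus control cells, tests whether the drug moved a transcript by another factor in the knockdown. It was called for IGFBP5 and IGFBP2, in opposite directions, 2 of 6 members, where 1.05% of tested genes were called, 0.437% with a positive and 0.616% with a negative difference. IGFBP5 had a difference of -0.47 (SE 0.06, 95% interval -0.59 to -0.36, edgeR adjusted p = 0.000664) on the log2 scale, the smallest p of all 12821 tested genes. IGFBP2 had a difference of 0.24 (SE 0.06, 95% interval 0.12 to 0.36, edgeR adjusted p = 0.0491), just inside the threshold. The differences of IGFBP4 and IGFBP7 were both -0.01, with 95% intervals of -0.10 to 0.09 and -0.16 to 0.15, and neither was called (edgeR adjusted p = 0.966 and 0.980). Over 24 alternative analyses the IGFBP4 difference ran from -0.13, below that interval, to 0.02, while leaving out a library moved it no lower than -0.036. With the GC correction 3 members had an unadjusted edgeR p under 0.05 for the difference, against 2 in the main fit, and 1 was called. IGFBP3 had -0.12 (95% interval -0.41 to 0.17) and IGFBP6 -0.04 (95% interval -0.58 to 0.51), where the low counts leave wide intervals. The IGFBP2 call was lost in 16 of 24 alternative analyses, among them relative log expression scaling (edgeR adjusted p = 0.0511) and the GC correction (difference of 0.15), and without any library except control DMSO replicate 2, control temozolomide replicate 1 or knockdown temozolomide replicate 3 (0.19 to 0.26). The IGFBP5 call was lost in 2 of 24, the limma fits to log2(FPKM + 0.1) and unfiltered log2(FPKM + 1) (adjusted p = 0.0612 and 0.0626). It held in the filtered limma fit to log2(FPKM + 1).

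Set against the control DMSO level, IGFBP5 stood at 23.3% in knockdown temozolomide, 57.9% in knockdown DMSO and 55.9% in control temozolomide libraries. The product of the knockdown DMSO and control temozolomide percentages is 32.3%, above the measured 23.3%. IGFBP4 stood at 46.8%, 63.9% and 73.5%, with a product of 46.9%, close to the measured 46.8%. IGFBP2 stood at 69.3%, 71.8% and 81.7%, with a product of 58.7%, below the measured 69.3%. The measured value and the product were 72.6% and 73.1% for IGFBP7, 67.1% and 69.4% for IGFBP6, and 84.4% and 91.8% for IGFBP3. CD44 itself stood at 29.9%, 38.5% and 75.3%.

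Markers of other cell types also differed between the groups, in both directions. The summed level of 7 epithelial markers ran from 683 to 785 CPM in knockdown temozolomide, 1064 to 1185 in knockdown DMSO, 1206 to 1250 in control temozolomide and 1642 to 1699 in control DMSO libraries, the order also seen for IGFBP4. These sums are nearly all keratins, while EPCAM and CDH1 were near 0. The summed level of 8 endothelial markers ran from 16.0 to 17.7, 32.4 to 33.6, 21.2 to 24.4 and 42.9 to 49.0 CPM in the same groups, mostly from CDH5 at a mean of 26.5 CPM, with PECAM1, VWF, CLDN5, TIE1 and ERG each below 1 CPM. Of the 5 tested epithelial markers 4 were lower in knockdown cells under either treatment, with 1 higher under temozolomide, and all 5 were lower after the drug in both kinds of cells. Of the 4 tested endothelial markers 2 were higher and 1 was lower in knockdown cells under either treatment. The summed level of 10 glial markers ran from 3481 to 3674, 4306 to 4387, 2991.5 to 3151.8 and 3856.7 to 4035.9 CPM in the 4 groups, mostly from VIM. Of the 5 tested glial markers 2 were higher and 1 was lower in knockdown cells under either treatment. The drug lowered 3 of them in each kind of cell. SOX2 averaged 275, 292, 399 and 390 CPM and NES 57.6, 77.5, 34.6 and 42.6 CPM in the same order of groups. The summed level of 7 leukocyte markers, nearly all CD68, was 24.5 to 27.4 CPM in knockdown temozolomide and 23.2 to 26.4 in knockdown DMSO libraries, against 13.8 to 16.5 in control temozolomide and 15.6 to 17.4 in control DMSO libraries. The 6 neuron markers summed to 16.4 to 17.4, 14.0 to 18.6, 11.6 to 12.1 and 8.95 to 9.99 CPM and the 7 pericyte markers to 20.1 to 24.6, 23.0 to 26.0, 16.0 to 19.4 and 18.5 to 18.7 CPM in the 4 groups, so these lists too did not overlap between knockdown and control cells under either treatment. CD68 and SYT1 were called higher in knockdown cells under temozolomide (log2 fold changes 0.77 and 1.06) and DMSO (0.62 and 1.14), and GAD1 under DMSO (0.55). Of 5 tested pericyte markers 2 were higher in knockdown cells under either treatment. After the drug 1 of 2 tested neuron markers was higher in control cells. The drug lowered 2 of the tested endothelial markers in knockdown and 1 in control cells. Of all tested genes 22.0% were higher and 20.3% lower in knockdown cells under temozolomide, and 21.1% and 21.4% under DMSO. The drug raised 11.7% and lowered 15.8% in control cells and lowered 13.2% in knockdown cells. The part of these markers in the IGFBP results was not tested.

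Among the ligands only IGF1 had enough counts to be tested. It had 6, 11 and 6 counts in knockdown temozolomide and 15, 10 and 20 counts in knockdown DMSO libraries, and 22, 13 and 16 counts in control temozolomide and 24, 26 and 33 counts in control DMSO libraries. It was lower in knockdown cells under DMSO (log2 fold change -0.99, SE 0.29, edgeR adjusted p = 0.00913) and under temozolomide (-0.96, SE 0.35, edgeR adjusted p = 0.0345), and lower after the drug in control cells (-1.003, SE 0.28, edgeR adjusted p = 0.0115). The drug change in knockdown cells, -0.98 with an SE of 0.36, was not called (edgeR adjusted p = 0.0572), but was called without knockdown DMSO replicate 2 (-1.18, edgeR adjusted p = 0.0402). These calls rest on few counts. The call under DMSO was lost without knockdown DMSO replicate 2 (-0.79), and that in control cells without control DMSO replicate 3 (-0.92) and in limma on log2(FPKM + 0.1) (adjusted p = 0.0726). The call under temozolomide was lost in 12 of 25 alternatives, which were each fit without a control temozolomide library or without knockdown temozolomide replicate 1 or 3 (-1.02 to -0.83), DESeq2, no low-count filter, only the groups compared, the 3 limma fits (-0.72 on log2(FPKM + 0.1) and -0.14 on log2(FPKM + 1)) and an adjusted p below 0.01. On log2(FPKM + 1) the values under DMSO and in control cells were -0.58 and -0.43. IGF2 had 19 counts over all 12 libraries, INS had 0, and IGFALS, the blood partner of IGFBP3 and IGFBP5 complexes, had 21, so none of them was tested. A floor of 3 counts is 0.121 to 0.222 CPM at these depths, counting error alone.

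Of 3 tested receptors 1 was called in each knockdown comparison. IGF2R, which takes up IGF2 for degradation and does not signal as a kinase, averaged 524 ± 7.64 CPM in knockdown temozolomide and 433 ± 12.6 in control temozolomide libraries, and 525 ± 8.80 in knockdown DMSO and 437 ± 21.1 in control DMSO libraries (SD, n = 3 each). It was that receptor both times, with log2 fold changes of 0.27 under temozolomide and 0.26 under DMSO (edgeR adjusted p = 2.2e-06 and 3.8e-06). IGF1R, the signalling receptor that IGFBPs keep ligand from, was called only for the drug in knockdown cells, at -0.30 (SE 0.06, edgeR adjusted p = 0.000849), with a difference between the responses of -0.14 (edgeR adjusted p = 0.388). INSR, the insulin receptor, was called in none of the 4 comparisons of groups. The limma fits to FPKM did not call IGF1R there (-0.07) or IGF2R under temozolomide (0.18).

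Of the 8 tested substrates and adaptors of these receptors, 4 were higher in knockdown cells under each treatment and none was lower, with a median log2 fold change of 0.283 under temozolomide and 0.0896 under DMSO (0.00828 and -0.00139 over all tested genes). GRB10, which binds the insulin and IGF1 receptors and dampens their signal, averaged 68.9 ± 4.85 CPM in knockdown temozolomide and 31.4 ± 1.40 in control temozolomide libraries, and 80.7 ± 0.999 in knockdown DMSO and 35.2 ± 2.26 in control DMSO libraries (SD, n = 3 each). Its log2 fold change was 1.13 under temozolomide and 1.20 under DMSO (edgeR adjusted p = 1.7e-12 and 6.8e-13). The receptor substrates IRS1 and IRS2 were higher by 0.41 and 0.39 under temozolomide and by 0.31 each under DMSO on the log2 scale. Temozolomide lowered IRS1 by a log2 fold change of -0.30 in knockdown and -0.41 in control cells (edgeR adjusted p = 0.00552 and 0.000518).

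Of 14 tested proteases that cut IGFBPs and their inhibitors, 8 were higher and 4 lower in knockdown cells under DMSO, and 6 higher and 3 lower under temozolomide, with median log2 fold changes of 0.204 and 0.233. PAPPA, which cuts IGFBP4 and IGFBP5, averaged 8.97 ± 0.625 CPM in knockdown temozolomide and 5.00 ± 0.426 in control temozolomide libraries, and 12.6 ± 0.510 in knockdown DMSO and 6.33 ± 0.990 in control DMSO libraries (SD, n = 3 each). Its log2 fold change was 0.84 under temozolomide and 0.99 under DMSO (edgeR adjusted p = 1.2e-05 and 7.3e-07). The stanniocalcins, inhibitors of PAPPA, differed in direction. STC2 was higher by 0.76 and 0.60 on the log2 scale under temozolomide and DMSO (edgeR adjusted p = 5.0e-05 and 0.000665), and STC1 changed by -0.40 and -0.33 (edgeR adjusted p = 8.4e-07 and 6.6e-06). ADAM12, which cuts IGFBP3 and IGFBP5, was higher by 1.07 and 1.17, and the complement protease C1S by 1.36 and 1.53 on the log2 scale. On log2(FPKM + 1), a scale that understates changes of low genes, these values were 0.34 and 0.46 for PAPPA, 0.49 and 0.39 for STC2 and 0.82 and 0.72 for C1S, all still called by limma. After temozolomide 9 of the 14 were lower in knockdown cells and 7 in control cells, with median log2 fold changes of -0.294 and -0.307, none was higher, and none was called in the difference. PAPPA was among the 9 with a log2 fold change of -0.48 (edgeR adjusted p = 0.00339), a call lost in limma on log2(FPKM + 0.1) (-0.39, adjusted p = 0.104). In control cells PAPPA had -0.33 and was not called (edgeR adjusted p = 0.0675), but was called without control DMSO replicate 3 (-0.42).

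The 7 tested genes that share the IGFBP-type domain at their start split in the knockdown, with 3 higher and 2 lower under DMSO and 3 higher and 1 lower under temozolomide (medians 0.279 and 0.177 on the log2 scale). CCN2 and CCN1, matricellular proteins, were higher by 1.47 and 1.10 under temozolomide and 1.47 and 1.34 under DMSO on the log2 scale, and CRIM1 by 0.50 and 0.52. HTRA1, a serine protease also counted among the proteases, changed by -0.20 on the log2 scale under DMSO (edgeR adjusted p = 0.000677). After the drug CCN4 changed by -1.55 in knockdown and -0.85 in control cells (edgeR adjusted p = 5.4e-05 and 0.00727). CCN4 had group means of only 1.07 to 3.19 CPM. On log2(FPKM + 1) its changes were -0.41 and -0.34 and were not called by limma. Both tested IGF2 mRNA-binding proteins, IGF2BP2 and IGF2BP3, which bind RNA and are no relatives of the IGFBPs, were higher in knockdown cells, IGF2BP3 by 0.60 under temozolomide and 0.75 under DMSO on the log2 scale. Of 19 genes of the PI3K-AKT-FOXO arm below the receptor, 5 were higher and 4 lower under temozolomide and 7 higher and 6 lower under DMSO. Of 21 tested partners of IGFBPs other than IGFs, 9 were higher under each treatment, while 6 were lower under temozolomide and 4 under DMSO, and the drug lowered 10 in each kind of cell. Beside the counts of these lists, 22.0% of all tested genes were higher and 20.3% lower in knockdown cells under temozolomide. Under DMSO these shares were 21.1% and 21.4%, and the drug lowered 13.2% in knockdown and 15.8% in control cells.

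**Figure D4:**
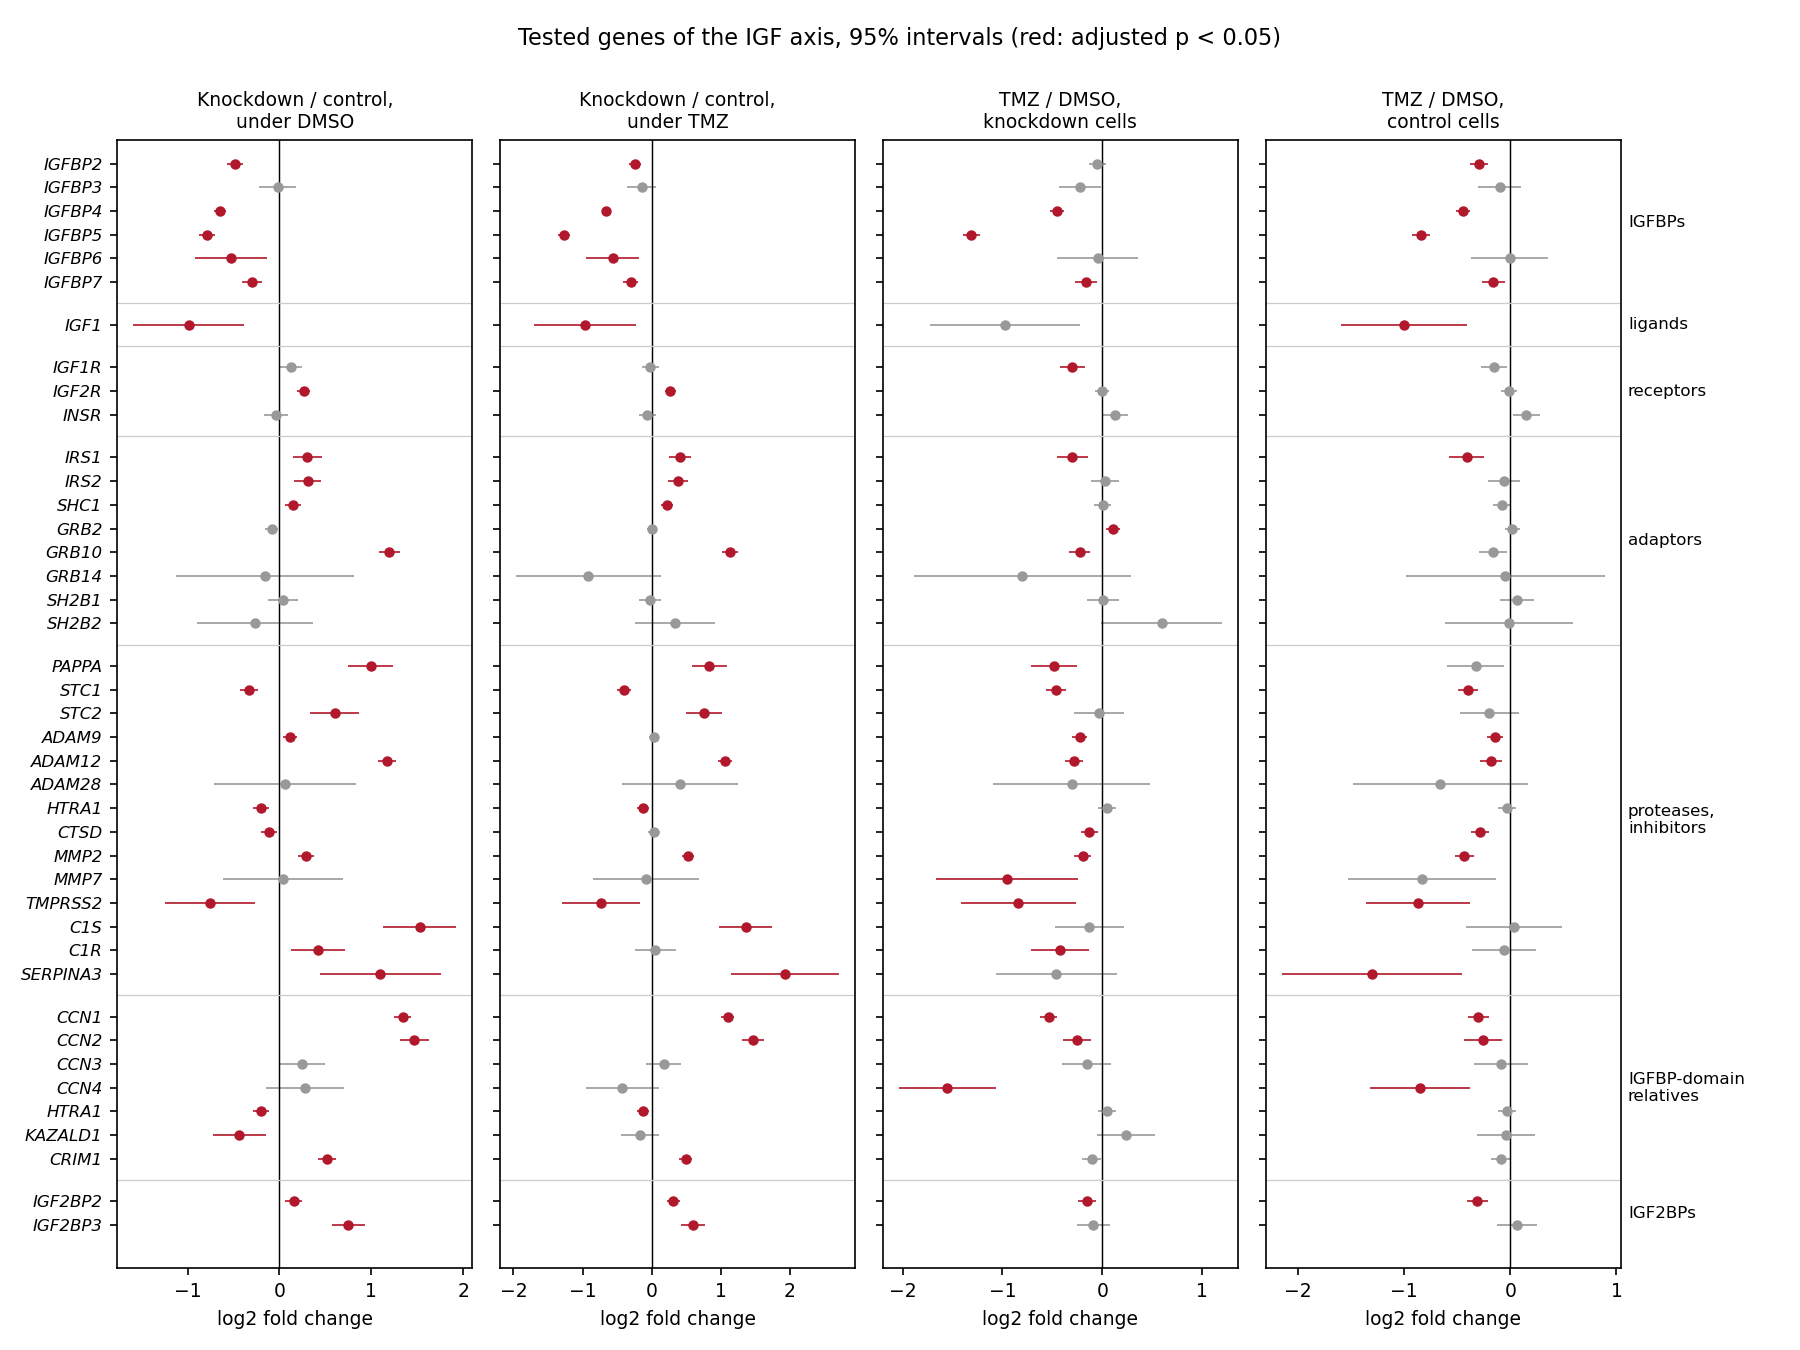
Log2 fold changes (horizontal axes) with 95% intervals for the IGFBPs and the tested genes of the lists around them, in 4 comparisons, with TMZ for temozolomide and red for an adjusted p below 0.05. The IGFBPs lie left of 0 in the knockdown panels, while GRB10 (1.20 under DMSO) and PAPPA (0.99 under DMSO) lie to the right, and HTRA1 appears in both lists that hold it.

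The genes with the pattern most like each member were found by the root mean square difference of log2 CPM, each gene centred on its own mean, over 12 libraries and among 10568 genes with at least 5 CPM on average. SOSTDC1 (0.183) and PDGFRA (0.193) were nearest to IGFBP5, whose own root mean square around its mean was 0.754. PDGFRA, a receptor tyrosine kinase, stood at 30.7%, 55.7% and 54.5% of its control DMSO level in knockdown temozolomide, knockdown DMSO and control temozolomide libraries, and SOSTDC1, a secreted antagonist of bone morphogenetic proteins, at 27.5%, 62.4% and 54.4%. IRX1 (0.0706) and BZW2 (0.073) were nearest to IGFBP4, which had 0.395 of its own. VPS51 (0.0454) and SLC37A4 (0.0482) were nearest to IGFBP2, with 0.211 of its own, and BTG1 (0.042) and FAM43A (0.0477) to IGFBP7, with 0.184. RCL1 (0.0637) and MRPL14 (0.0669) were nearest to IGFBP3 and DDB2 (0.0911) and ENSG00000170846 (0.0954), to which no symbol was matched, to IGFBP6, with 0.126 and 0.284 of their own.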

How the data were processed

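The authors' first table holds estimated counts per gene in 12 libraries, and 10.7% to 12.0% of its values per library were not whole. The authors' second table holds FPKM, fragments per transcript length and library total. Per the labels' protocols, RNA was selected with oligo(dT), and the submitters' processing notes name RSEM, StringTie 1.3.1, HISAT2, Bowtie2 2.2.8 and fastp 0.18.0, with no roles. The authors' build is not given in the sources used, so positions come from GENCODE on GRCh38 by gene ID and promoter windows from RefSeq on GRCh38.p14.

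The estimated counts were rounded, and edgeR 4.0.16 (R 4.3.3) was applied: filterByExpr (12821 of 20289 genes kept), TMM scaling and a quasi-likelihood fit of 4 group means to all 12 libraries. Calls needed an adjusted p below 0.05 (Benjamini-Hochberg over all tested genes). An SE is the absolute log2 fold change divided by the square root of F. The biological coefficient of variation was 3.90%. CPM are TMM-scaled, and were not length-corrected. GC content is that of each gene's longest GENCODE transcript.

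The members and the gene lists were chosen with earlier results of these data known. Besides the members and CD44, the text names with values at most 3 genes per direction in a list and comparison, those of smallest p, from 6 lists around the IGF axis, and 2 nearest patterns per member. PAPPA in 2 comparisons and STC2 were added after their values were seen. Alternatives were DESeq2 1.42.0, scaling by relative log expression or by library totals alone, other low-count filters, a fit of the compared groups only, a replicate block, GC correction by splines with 5 degrees of freedom, each library left out, limma 3.58.1 on log2(FPKM + 1) or log2(FPKM + 0.1), and an adjusted p below 0.01.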

Additional observations from a re-analysis of the deposited data

Results flagged for a closer look

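IGFBP5 was flagged because its temozolomide response differed between knockdown and control cells. The difference in log2 fold change, knockdown minus control cells, was -0.47 (SE 0.06, edgeR quasi-likelihood test, Benjamini-Hochberg adjusted p = 0.000664), and the gene was lower after the drug in both kinds of cells. It stood at 310.5 ± 9.84 CPM in knockdown temozolomide, 771 ± 33.4 in knockdown DMSO, 745 ± 28.5 in control temozolomide and 1332 ± 64.6 in control DMSO libraries (SD, n = 3 each).

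IGFBP2 was flagged for a difference of the opposite sign, 0.24 (SE 0.06, edgeR adjusted p = 0.0491). It stood at 115 ± 2.97 CPM in knockdown temozolomide, 119.7 ± 5.11 in knockdown DMSO, 136 ± 3.58 in control temozolomide and 167 ± 6.97 in control DMSO libraries (SD, n = 3 each), so that the drug change was called in control cells and not in knockdown cells. Groups of 3 libraries were not searched for single libraries far from the others.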

How the results depend on the processing

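The calls of IGFBP2, IGFBP4, IGFBP5 and IGFBP7 in both knockdown comparisons, of IGFBP4 and IGFBP5 after temozolomide in both kinds of cells and of IGFBP2 after it in control cells held in all 25 alternatives. The IGFBP5 difference held in 22 of 24, between -0.52 and -0.45. Of 39 results of list genes given with values, 12 changed call or sign in at least 1 alternative at the same threshold. The drug calls of CCN4 in both kinds of cells and of IRS1 and IGF1R in knockdown cells were lost in all 3 limma fits to FPKM. Low counts limit IGFBP6 and IGF1, and CCN4 was also low, at group means of 1.07 to 3.19 CPM.

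Values that changed sign were all uncalled, and near 0 except that of IGF1 (-0.98). For IGFBP3 under DMSO knockdown against control gave 0.021 with library totals alone, 0.077, 0.092 and 0.077 in the limma fits to log2(FPKM + 1), log2(FPKM + 0.1) and unfiltered FPKM, and -0.086 to 0.026 when a library was left out. For temozolomide in knockdown cells IGFBP2 gave 0.013 and IGFBP6 0.017 with library totals alone, IGFBP6 gave 0.043, 0.057 and 0.043 in the FPKM fits and -0.12 to 0.059 when a library was left out, and IGF1 gave 0.0089 with log2(FPKM + 1), filtered or not. For temozolomide in control cells IGFBP3 gave 0.024, 0.030 and 0.024 in the FPKM fits, and IGFBP6 gave 0.060, 0.074 and 0.060 there, 0.060 with library totals alone, 0.099 with GC correction, 0.094 with GC correction and replicate block, and -0.076 to 0.042 when a library was left out. The difference between responses ran, with a library left out, from -0.036 to 0.018 for IGFBP4, -0.11 to 0.066 for IGFBP6 and -0.075 to 0.045 for IGFBP7. The cause was not tested.

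In the difference 2 members were called, but 1 with relative log expression factors, GC correction with or without replicate block, log2(FPKM + 1) or an adjusted p below 0.01, 0 with log2(FPKM + 0.1) or unfiltered FPKM, and 1 to 2 with a library left out. DESeq2 called 2, and in both limma fits with 0 calls 2 members had an unadjusted p under 0.05. Of all genes 135 differed, against 362 in DESeq2, 546 without a filter, 33 with GC correction, 38 with GC correction and block, 3, 0 and 0 in the FPKM fits, 13 at the adjusted p below 0.01, and 19 to 395 with a library left out. Temozolomide called 2854 genes in knockdown cells, against 1875 in unfiltered FPKM and 1578 below 0.01, and 3529 in control cells, against 2187 below 0.01.

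With library totals alone, genes called higher and lower were 3387 and 2167 for the knockdown under DMSO (2710 and 2748 with TMM), 3457 and 2126 under temozolomide (2823 and 2603), 2533 and 1078 for the drug in knockdown cells (1160 and 1694) and 2870 and 1295 in control cells (1505 and 2024). With GC correction the knockdown gave 2296 and 3321 under DMSO and 2558 and 3199 under temozolomide. On log2(FPKM + 1) limma gave 1355 and 693 for the drug in knockdown cells and 1738 and 924 in control cells. Library totals alone shifted the median of all genes by less than 0.1 on the log2 scale.

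Over 18 pairs of libraries with the same replicate number in different groups, correlations ran from -0.077 to 0.136. The best partners of 6 out of 12 libraries had the same number, so whether the numbers pair libraries cannot be told from these values. With the number as a replicate block, 5, 5, 3, 4 and 2 members were called in the 5 comparisons, as without it, and 222 genes in the difference. PAPPA after the drug in control cells was called with the block (-0.34, edgeR adjusted p = 0.0475).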
